A study of Homo sapiens with 12 samples.

Results

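The transcripts of 8 genes that bring iron into the cell, store it, release it, export it or sense it were followed in MM1S cells, a human multiple myeloma cell line, during treatment with the oligosaccharyltransferase inhibitor NGI-1. The oligosaccharyltransferase is the enzyme complex that attaches N-linked glycans to proteins in the endoplasmic reticulum. The members were chosen by gene symbol, with earlier results of these data known, and the rule itself uses no measured value: TFRC, SLC11A2, FTH1, FTL, NCOA4, SLC40A1, ACO1 and IREB2. They are 8 of the 59276 features in the table. Of these, 7 passed the filter on low values, as did 11939 features in all, and SLC40A1 did not pass. The experiment comprised 12 libraries of total RNA in 4 groups of 3. All were MM1S cells, and the groups differed in the time point, which was day 0, day 2, day 3 or day 5. The day 0 libraries carry the same NGI-1 treatment label as the others, while the study compares treated with untreated cells and its methods give 10 µM of the compound for the later groups, so day 0 is read here as the untreated group. No library of untreated cells at a later day was analysed here, so time in culture and treatment cannot be told apart. The labels do not say whether the 3 libraries of a group came from separate cultures, so the p-values measure the spread between these libraries, which may be technical.

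Iron enters most dividing cells bound to transferrin, which is taken up by the transferrin receptor and releases its iron in the endosome. Iron that is not used at once is kept inside ferritin, a shell of heavy and light chains, and is recovered when the receptor NCOA4 carries ferritin to the lysosome. The iron regulatory proteins, encoded by ACO1 and IREB2, bind a hairpin in mRNA called the iron-responsive element. When iron is scarce, their binding stabilises the transferrin receptor mRNA through elements in its 3′ UTR and blocks translation of ferritin mRNA through an element in its 5′ UTR. Plasma cells and myeloma cells handle iron while making large amounts of secreted protein, and the receptor itself carries N-linked glycans.

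The hairpins are shown because their place differed between members, in the 3′ UTR of TFRC and in the 5′ UTR of FTH1, FTL and SLC40A1. A search of the UTRs of the members' coding transcripts (GENCODE release 29, build GRCh38) looked on the transcript strand for an unpaired C, 5 paired bases, the loop CAGTGN and the matching 5 bases. Sites are printed 5′ to 3′ on the transcript strand over 29 bases, with the loop in capitals.
TFRC 3′ UTR, chr3:196050979-196051007, minus strand: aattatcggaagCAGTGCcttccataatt
TFRC 3′ UTR, chr3:196050575-196050603, minus strand: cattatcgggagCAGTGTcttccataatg
TFRC 3′ UTR, chr3:196050510-196050538, minus strand: ctgtatcggagaCAGTGAtctccatatgt
TFRC 3′ UTR, chr3:196050463-196050491, minus strand: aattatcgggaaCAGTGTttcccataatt
FTH1 5′ UTR, chr11:61967574-61967602, minus strand: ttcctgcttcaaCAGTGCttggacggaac
FTL 5′ UTR, chr19:48965335-48965363, plus strand: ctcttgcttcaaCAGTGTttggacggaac
SLC40A1 5′ UTR, chr2:189580661-189580689, minus strand: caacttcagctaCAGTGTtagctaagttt

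The sites in TFRC were in 3 of its 4 coding transcripts, that in FTH1 in 7 of 8, that in FTL in the only coding transcript, and that in SLC40A1 in 1 of 5. No match to these letters was found in SLC11A2, NCOA4, ACO1 or IREB2. That does not show that they lack an iron-responsive element, because the search misses elements of another form in any member. Over the principal transcripts of 19544 coding genes, with at least 2 of 4 further pairs required below the unpaired C, such a hairpin was present in the 5′ UTR of 10 genes (0.0512%) and in the 3′ UTR of 49 (0.251%), without allowance for UTR length. A match describes the letters only.

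Transcript levels are given in TPM, a measure of transcript abundance that is corrected for transcript length and has the same total in every library. Log2 fold changes are on the log2(TPM + 1) scale and understate changes of low genes. A gene is called lower or higher where the limma adjusted p (Benjamini-Hochberg over the 11939 tested features) is under 0.05 and the log2 fold change is over 0.5 in size. TPM are shares, so a gain in some transcripts lowers the values of the others. Over all tested features the median change was -0.18 on the log2 scale at day 2, -0.73 at day 3 and -0.99 at day 5. The cause of this shift was not tested. Most changes are also given after rescaling every library to the same median over 5433 well-expressed features. That brought those medians to 0.01, -0.03 and -0.02. Rescaling takes the typical feature as unchanged, which was not tested, and calls made only after rescaling depend on it. The table keeps no read counts, so the counting error of a value is unknown. Overlap between groups is described on the deposited TPM unless stated, and how many of all features overlapped was not counted. Checked against marker genes, the libraries held 8 of 8 plasma cell markers at 1 TPM or more in every group. Of 5 markers each for T and NK cells, monocytes, red cell precursors and fibroblasts, group means were under 1 TPM except for CD3E in every group and CD68 at days 0, 2 and 3, both under 7 TPM. Features above 0 numbered 18164 to 20407 per library.

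On the deposited scale all 7 tested members were called lower at day 3. On the rescaled values TFRC, ACO1 and IREB2 were lower and FTL was higher at day 5. At day 2, 2 of the 7 tested members, TFRC and IREB2, were called lower and 0 higher, beside 23.2% of all tested features called lower and 8.04% higher. At day 3, 7 were lower and 0 higher, where 61.5% of all features were lower and 7.59% higher. At day 5, 6 were lower and 0 higher, where 69.8% were lower and 7.73% higher. The median log2 fold change of the members was -0.25, -1.26 and -1.35 at days 2, 3 and 5. After rescaling, 1 member was lower at day 2 (11.4% of all features lower, 12.9% higher, and 0 members higher), 3 were lower at day 3 (24.2% lower, 23.9% higher, and 0 members higher), and 3 were lower and 1 higher at day 5 (26.9% lower, 27.5% higher). The rescaled medians of the members were -0.04, -0.49 and -0.27. The 3 comparisons with day 0 share the same 3 day 0 libraries.

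**Figure D1:**
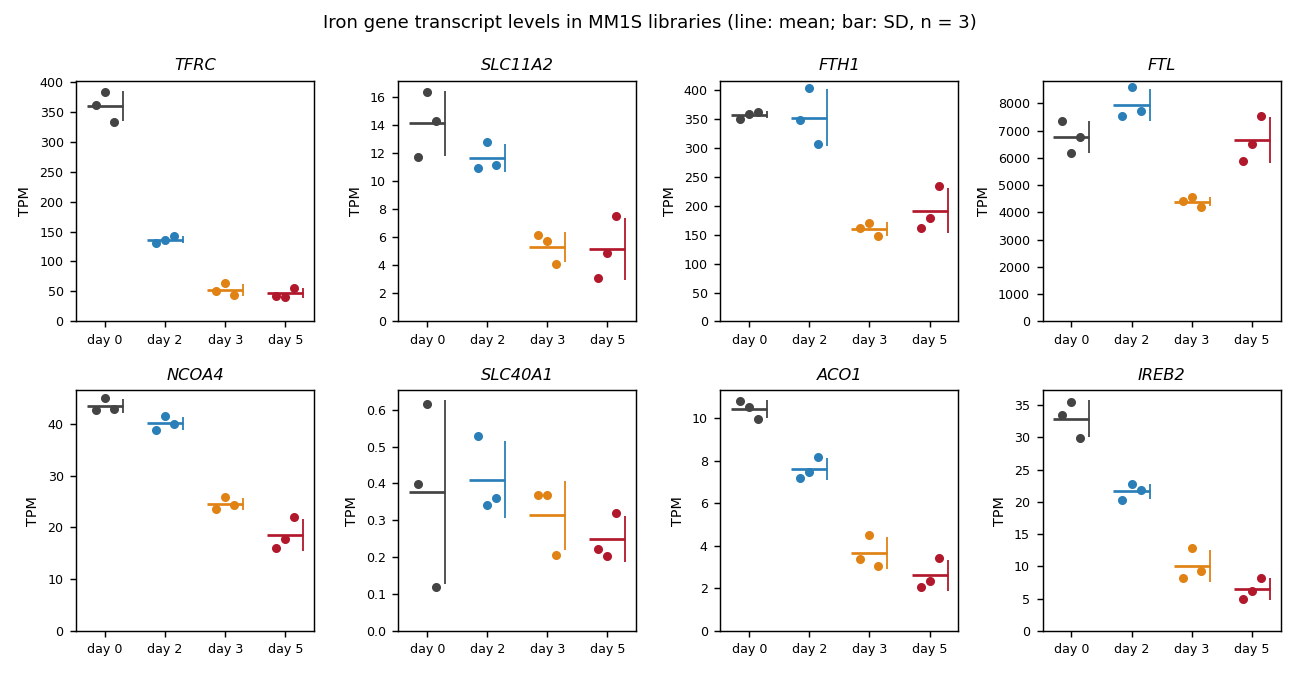
Transcript level in TPM (vertical axes, each from 0) of the 8 members in the 12 libraries by day of NGI-1. Points are libraries, horizontal lines are group means and vertical bars are SD (n = 3). TFRC lies between 333 and 382 TPM at day 0 and between 41.2 and 56.5 TPM at day 5, FTL at day 5 overlaps day 0, and SLC40A1 stays under 1 TPM throughout.

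TFRC encodes transferrin receptor 1, which takes up iron-loaded transferrin (gene at chr3:196027183-196082189, minus strand). The day 0 libraries held 362, 382 and 333 TPM, and the day 2 libraries 131, 135 and 142. Day 3 libraries held 50.5, 64.0 and 44.3 TPM, and day 5 libraries 42.7, 41.2 and 56.5. Every treated library lay below every day 0 library, and day 3 and day 5 overlapped. In group means the level went from 359 ± 24.7 TPM at day 0 to 136 ± 5.75, 52.96 ± 10.1 and 46.8 ± 8.43 TPM at days 2, 3 and 5 (SD, n = 3). TFRC was 2.63-fold lower at day 2 (log2 fold change -1.39 ± 0.13 SE, limma adjusted p = 2.83e-06). By day 3 it was 6.74-fold lower (-2.75 ± 0.13, limma adjusted p = 8.01e-10) and by day 5 it was 7.59-fold lower (-2.92 ± 0.13, limma adjusted p = 2.38e-10). The fall from day 2 to day 3 was also past the threshold (log2 fold change -1.36, limma adjusted p = 4.28e-06), while day 5 differed from day 3 by -0.17 (limma adjusted p = 0.350). After rescaling, the difference of day 5 from day 3 was 0.18 (limma adjusted p = 0.239), a flipped direction without a call. Against day 0, TFRC kept its direction and its call on the rescaled values at every day, with log2 fold changes of -1.16, -1.89 and -1.71. It was the member with the largest fall at each day on either scale. In bulk RNA, fewer cells that express a gene and less of its RNA per cell cannot be told apart.

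SLC11A2 encodes DMT1, the carrier that moves iron out of the endosome after it leaves transferrin (chr12:50979401-51028566, minus strand). Its libraries held 11.7, 16.4 and 14.3 TPM at day 0 and 10.9, 12.8 and 11.2 TPM at day 2, and these groups overlapped. The later libraries held 6.13, 5.74 and 4.10 TPM at day 3 and 3.11, 4.89 and 7.51 TPM at day 5, all below day 0. SLC11A2 was called lower at day 3 (log2 fold change -1.26 ± 0.22 SE, limma adjusted p = 1.38e-04) and at day 5 (-1.35, limma adjusted p = 6.09e-05), and at day 2 the value was -0.25 (limma adjusted p = 0.376). On the rescaled values it was called at no day, with -0.04, -0.49 and -0.27, and day 5 overlapped day 0. On the deposited scale the order of its levels was day 0, day 2, day 3 and day 5. Of these, days 0 and 2, and days 3 and 5, did not differ beyond their spread. The rescaled means were 6.45 TPM at day 3 and 7.82 TPM at day 5, the reverse order, and these groups overlapped.

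FTL encodes the ferritin light chain, which helps the iron core to form inside the shell, and it was the most abundant member (chr19:48965301-48966878, plus strand). The day 0 libraries held 7342, 6169 and 6780.1 TPM, and the day 2 libraries 7517, 8596 and 7704 TPM. Day 3 libraries held 4399.6, 4554 and 4212 TPM, and day 5 libraries 5897, 6490.3 and 7548 TPM. Day 2 lay above day 0, day 3 lay below every other group, and day 5 overlapped day 0. The day 2 value was 0.23 ± 0.09 on the log2 scale (SE, limma adjusted p = 0.0477), under the size needed for a call. After rescaling it was 0.47 (limma adjusted p = 0.00129), also under that size. FTL was lower at day 3 (-0.62 on the deposited scale, limma adjusted p = 2.22e-05) but its direction flipped on the rescaled values, where it was 0.25 and not called. At day 5 the deposited log2 fold change was -0.03 (limma adjusted p = 0.764), against 1.20 after rescaling (limma adjusted p = 9.78e-08), a call of 2.29-fold higher. From day 3 to day 5 FTL rose on both scales, by 0.59 on the deposited scale (limma adjusted p = 6.22e-04) and by 0.95 after rescaling (limma adjusted p = 1.60e-04). The deposited rise was 0.496 without day 5 replicate 3, just under the size needed for a call.

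FTH1 encodes the ferritin heavy chain, which holds the ferroxidase site that oxidises iron for storage (chr11:61959718-61967660, minus strand). The libraries held 351, 359.5 and 362 TPM at day 0, 349, 403 and 306 TPM at day 2, 161, 171 and 148 TPM at day 3, and 161, 179 and 235 TPM at day 5. Days 0 and 2 overlapped, days 3 and 5 overlapped, and the later pair lay below the earlier pair. FTH1 gave -0.03 at day 2 (limma adjusted p = 0.867), was 2.23-fold lower at day 3 (log2 fold change -1.16 ± 0.13 SE, limma adjusted p = 1.66e-06) and was 1.88-fold lower at day 5 (-0.91, limma adjusted p = 1.10e-05). The rescaled values were 0.20, -0.29 and 0.31, none of them called, so that the direction flipped at days 2 and 5. Day 3 against day 2 was -1.13 on the deposited scale, called lower, and -0.496 after rescaling, just under the size for a call. Day 5 against day 3 was 0.24 on the deposited scale (limma adjusted p = 0.157) and 0.60 after rescaling (limma adjusted p = 9.95e-04), where it was called higher.

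Both ferritin genes have processed pseudogenes of near-identical sequence, so their values are uncertain to the extent that reads were divided among copies. Of 24 FTH1 pseudogenes in the table, 12 were above 0 in some library, with FTH1P2 the highest at a mean of 0.829 TPM. Their summed level was 0.589 to 3.48 TPM per library and at most 1.07% of FTH1. Of 16 FTL pseudogenes, 3 were above 0, with FTLP3 the highest at 0.276 TPM, and their sum was at most 0.0157% of FTL.

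NCOA4 encodes the cargo receptor that delivers ferritin to the lysosome for iron release (chr10:46005088-46030714, minus strand). The libraries held 42.7, 45.04 and 42.8 TPM at day 0, 38.9, 41.5 and 40.1 TPM at day 2, 23.6, 25.9 and 24.3 TPM at day 3, and 16.0, 17.7 and 22.0 TPM at day 5. On the deposited scale no 2 groups overlapped, and each day lay below the one before it. After rescaling, days 3 and 5 overlapped day 0 and each other, and day 3 overlapped day 2. NCOA4 was lower at day 3 (log2 fold change -0.80 ± 0.11 SE, limma adjusted p = 1.15e-05) and at day 5 (-1.20, limma adjusted p = 1.44e-07), and the day 2 value was -0.11 (limma adjusted p = 0.407). After rescaling the values were 0.11, 0.04 and -0.01, with a flipped direction at days 2 and 3 and no call at any day. Its deposited fall at days 3 and 5 stands beside medians of -0.73 and -0.99 over all features.

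SLC40A1 encodes ferroportin, the only known exporter of iron from the cell (chr2:189560579-189583758, minus strand). It was under 1 TPM in all 12 libraries, with 0.118 to 0.615 TPM at day 0, 0.340 to 0.530 TPM at day 2, 0.206 to 0.368 TPM at day 3 and 0.203 to 0.319 TPM at day 5. The groups overlapped day 0 at every day, and no fold change was fitted.

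**Figure D2:**
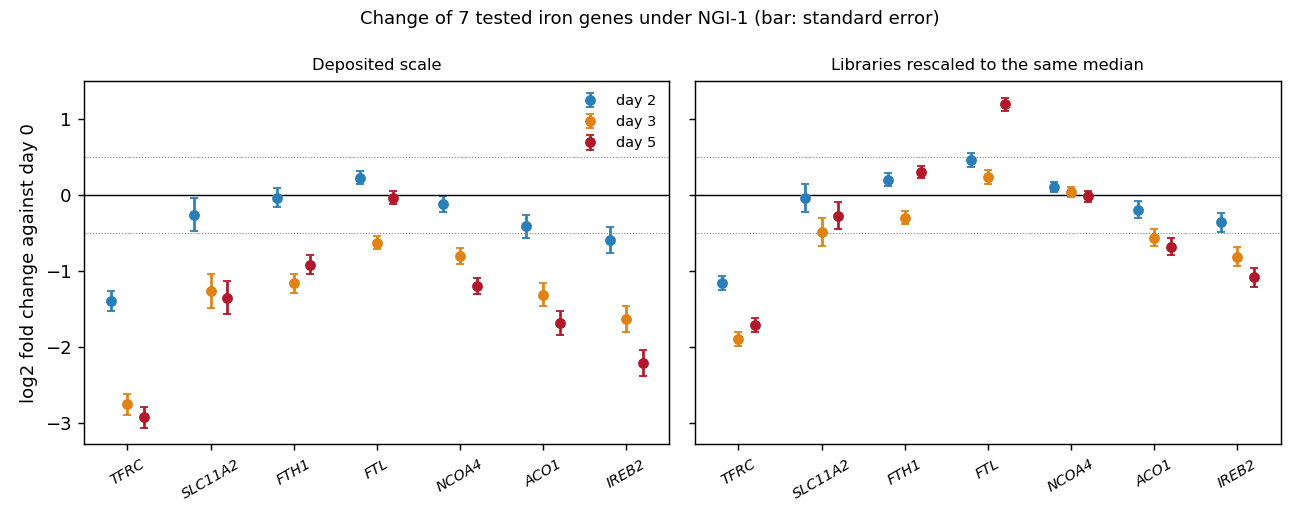
Log2 fold change against day 0 (vertical axis) of the 7 tested members at days 2, 3 and 5, on the deposited scale (left) and after rescaling every library to the same median (right). Points are limma estimates, bars are standard errors and dotted lines mark 0.5 in either direction. TFRC lies at -2.92 on the left and -1.71 on the right at day 5, and FTL goes from -0.03 to 1.20.

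ACO1 encodes iron regulatory protein 1, which is the cytosolic aconitase when it holds an iron-sulfur cluster (chr9:32384603-32454769, plus strand). The libraries held 10.8, 10.5 and 9.95 TPM at day 0, 7.19, 7.47 and 8.17 TPM at day 2, 3.37, 4.51 and 3.06 TPM at day 3, and 2.07, 2.33 and 3.40 TPM at day 5. Every treated library was below every day 0 library, and days 3 and 5 overlapped. The day 2 log2 fold change was -0.41 (limma adjusted p = 0.0432), under the size for a call, and -0.19 after rescaling (limma adjusted p = 0.193). ACO1 was lower at day 3 (-1.31 ± 0.15 SE, limma adjusted p = 3.30e-06) and day 5 (-1.68, limma adjusted p = 1.71e-07), and it was also called lower after rescaling, with -0.56 (limma adjusted p = 6.89e-04) and -0.68 (limma adjusted p = 1.26e-04).

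IREB2 encodes iron regulatory protein 2, which is removed by the proteasome when iron is plentiful (chr15:78437431-78501456, plus strand). The libraries held 33.4, 35.4 and 29.8 TPM at day 0, 20.3, 22.7 and 21.8 TPM at day 2, 8.15, 12.9 and 9.29 TPM at day 3, and 4.93, 6.17 and 8.25 TPM at day 5. The group means were lower at each later day, with an overlap only between days 3 and 5. IREB2 was lower at day 2 (log2 fold change -0.58 ± 0.17 SE, limma adjusted p = 0.0133), although leaving out day 0 replicate 2 brought this to -0.53 (limma adjusted p = 0.0512). The fall was 3.09-fold at day 3 (-1.63, limma adjusted p = 1.17e-06) and 4.62-fold at day 5 (-2.21, limma adjusted p = 3.39e-08). On the rescaled values the day 2 difference of -0.35 was not called, and days 3 and 5 were lower at -0.81 (limma adjusted p = 8.86e-05) and -1.08 (limma adjusted p = 5.23e-06).

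Between treated groups, more members, and more of all features, were called from day 2 to day 3 than from day 3 to day 5 on the deposited scale. After rescaling, fewer members were called in the earlier step than in the later one. From day 2 to day 3, 7 of 7 members were called lower and 0 higher, beside 55.5% of all features lower and 3.22% higher, and after rescaling 1 member, TFRC, was lower and 0 were higher (13.6% lower and 14.3% higher over all features). From day 3 to day 5, 1 member, IREB2, was lower and 1, FTL, was higher, where 13.1% of all features were lower and 0.67% higher. IREB2 gave -0.58 in that step (limma adjusted p = 0.0233) and was no longer called without day 3 replicate 2 (-0.41), day 5 replicate 1 (-0.43) or day 5 replicate 2 (-0.56). Without day 5 replicate 3, FTL was not called and NCOA4 (-0.52) and ACO1 (-0.53) were called lower with IREB2. In that setting 3019 of all 11891 tested features were called lower and 73 higher, against 1565 and 80 of 11939 with all libraries. After rescaling, 0 members were lower and 2, FTH1 and FTL, were higher from day 3 to day 5, beside 2.03% of all features lower and 4.43% higher.

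Ratios within a library do not depend on how it was scaled, apart from the constant of 1 added to each TPM, which matters for low genes. They were compared between the 9 treated and the 3 day 0 libraries by exact permutation, two-sided, over all 220 ways to pick the day 0 libraries. The smallest p this design allows is 0.00909. The FTL level was 17.1 to 20.9 times that of FTH1 at day 0 and 32.0 to 36.3 times at day 5. The log2 ratio of FTH1 to FTL was -4.23, -4.50, -4.77 and -5.12 in group means at days 0, 2, 3 and 5, and every treated library lay below every day 0 library (treated minus day 0 -0.56, exact permutation p = 0.00909, 0.0121 after Benjamini-Hochberg adjustment over 4 measures). TFRC and FTH1 were at nearly the same TPM at day 0, with a mean log2 ratio of 0.0037, and the ratio was -1.36, -1.59 and -2.01 at days 2, 3 and 5 (treated minus day 0 -1.66, exact permutation p = 0.00909, adjusted 0.0121). The log2 ratio of ACO1 to IREB2 was -1.57 at day 0 and -1.39, -1.25 and -1.04 at days 2, 3 and 5 (treated minus day 0 0.34, exact permutation p = 0.00909, adjusted 0.0121), so IREB2 stayed the more abundant mRNA of the pair. Part of this shift comes from the added constant, which raises the ratio more at low levels. Without the constant, day 2 replicate 2 and day 3 replicate 3 lay below day 0 replicate 3. FTH1 and FTL together made up 0.712% of all TPM at day 0, and 0.829%, 0.455% and 0.684% at days 2, 3 and 5 (treated minus day 0 -0.056 percentage points, exact permutation p = 0.645). This test pools days that went opposite ways, so it cannot show that the share stayed the same. Single libraries held 0.653% to 0.769% at day 0, 0.787% to 0.900% at day 2 and 0.436% to 0.473% at day 3. Day 5, at 0.606% to 0.778%, overlapped day 0.

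**Figure D3:**
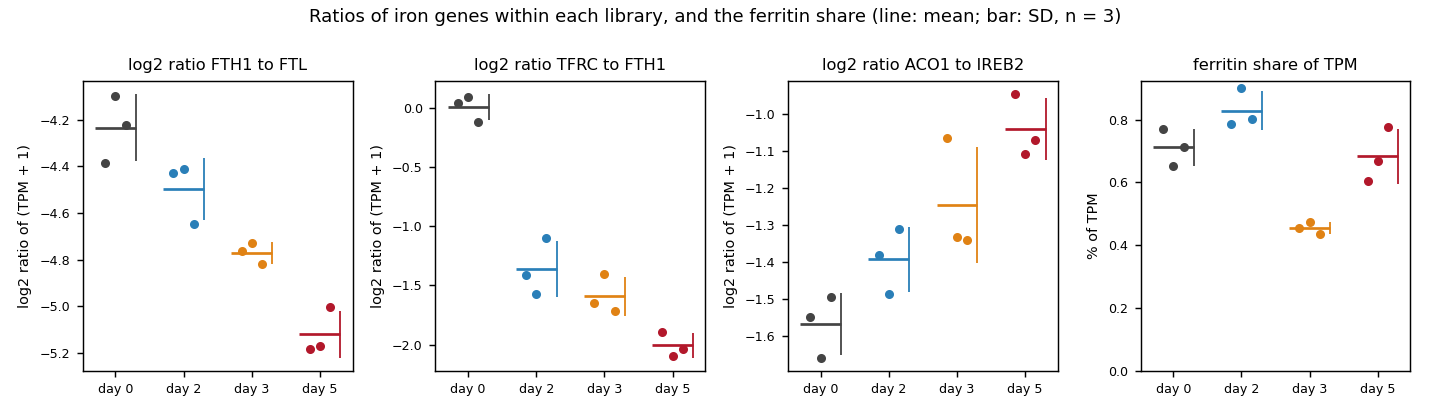
Log2 ratios of FTH1 to FTL, TFRC to FTH1 and ACO1 to IREB2 within each library, on TPM + 1, and the share of all TPM held by FTH1 and FTL in percent, by day of NGI-1. Points are libraries, lines are means and bars are SD (n = 3). The first 2 ratios lie lower in every treated library than in any day 0 library. The third lies higher on TPM + 1, but not in every treated library without the added constant. The ferritin share is lowest at day 3.

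Beyond the 8 members, 82 other iron genes in 4 lists were examined, of which 62 were tested. On the deposited scale 20, 50 and 52 of them were called lower at days 2, 3 and 5, beside 23.2%, 61.5% and 69.8% of all tested features, and 0 were called higher, beside 8.04%, 7.59% and 7.73%. The lists had median log2 fold changes of -0.36, -0.92 and -1.19 beside -0.18, -0.73 and -0.99 over all features. After rescaling, day 2 had 8 lower and 1 higher, day 3 had 16 lower and 9 higher, and day 5 had 18 lower and 11 higher, with medians of -0.13, -0.13 and -0.14. Over all features the rescaled shares called lower were 11.4%, 24.2% and 26.9% at the same days, and those called higher 12.9%, 23.9% and 27.5%. In what follows, the gene that fell most in a list is the one with the lowest log2 fold change on the deposited log2(TPM + 1) scale.

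In the list of uptake and transport, 8 of 18 genes were tested, and 2, 7 and 7 were lower at days 2, 3 and 5 (23.2%, 61.5% and 69.8% over all features) with 0 higher. The genes that were not tested included TF, which encodes transferrin, and the ferroxidases CP and HEPH. TFR2, a second transferrin receptor, fell most at day 2, from 2.21 to 0.940 TPM (log2 fold change -0.73, limma adjusted p = 5.36e-04). TFR2 passed the filter on low values through its day 0 libraries (2.06 to 2.40 TPM), and its group means were under 1 TPM at each later day. Its fall is therefore only a description of a gene kept by the group where it was high. STEAP3, the endosomal ferrireductase that prepares iron for DMT1, fell most at day 5 on the deposited scale, from 9.46 to 1.84 TPM (-1.89, and -0.94 after rescaling). TFR2 was at 0.160 TPM at day 5, which gave -1.47 on the deposited scale and, at -0.99, the lower value of the pair after rescaling. STEAP1, a relative of STEAP3, was at 44.1 TPM at day 0 and 61.8 TPM at day 5, which gave 0.48 on the deposited scale, under the size for a call, and 1.68 after rescaling, where it was called higher. Without day 5 replicate 2 the deposited value was 0.51 and was called. SLC39A14, a carrier of iron not bound to transferrin, had the smallest difference at day 2 (-0.07). After rescaling, TFR2 and STEAP3 were lower and STEAP1 higher at day 5, beside 26.9% of all features lower and 27.5% higher.

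Among regulators and chaperones, 10 of 18 genes were tested, and 3, 8 and 9 were lower at days 2, 3 and 5, against 23.2%, 61.5% and 69.8% of all features, with 0 higher. CUL1, a scaffold of the ubiquitin ligase that acts on iron regulatory protein 2, led at both ends, at -0.94 at day 2 and -2.33 at day 5, with 62.7 TPM at day 0 and 11.9 TPM at day 5, and -1.16 at day 5 after rescaling. MARCHF8, a ubiquitin ligase that acts on transferrin receptor 1, was at 4.26 TPM at day 0 and 6.05 TPM at day 2, a difference of 0.42 that was not called on the deposited scale and of 0.58 that was called higher after rescaling. CIAO2A, a factor for cytosolic iron-sulfur proteins that include iron regulatory protein 1, gave -0.06 at day 5 on the deposited scale and 1.16 after rescaling, so its direction flipped. The rescaled day 5 calls were 4 lower, which included CUL1, PCBP1 and BMP6, and 1 higher, CIAO2A, beside 26.9% and 27.5% of all features. The regulator HAMP, which encodes hepcidin, and HFE were among those not tested.

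In heme synthesis, transport and breakdown, 18 of 20 genes were tested, and 7, 13 and 14 were lower at days 2, 3 and 5, where 23.2%, 61.5% and 69.8% of all features were, with 0 higher. The list medians of -0.17, -0.72 and -1.03 lay close to those of all features (-0.18, -0.73 and -0.99). FLVCR1, a plasma membrane transporter described as a heme exporter, fell most, from 7.15 to 3.32 TPM at day 2 (-0.93) and to 0.890 TPM at day 5 (-2.12, and -1.29 after rescaling). TMEM14C, a mitochondrial protein needed for heme synthesis, was at 54.6 and 68.5 TPM at days 0 and 5, which gave 0.32 on the deposited scale, not called, and 1.52 after rescaling, called higher. FECH, which inserts iron into the heme ring, gave 0.25 at day 2 and was not called. After rescaling, 4 genes were lower and 5 higher at day 5, beside 26.9% and 27.5% of all features. Those lower included ALAS1, FLVCR1 and CLPX, and UROD, PPOX, BLVRA, BLVRB and TMEM14C were higher.

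All 26 genes of iron-sulfur cluster assembly were tested, and 8, 22 and 22 were lower at days 2, 3 and 5, beside 23.2%, 61.5% and 69.8% of all features, with 0 higher. BOLA3, which helps to pass clusters to mitochondrial enzymes, fell most at day 2, from 176 to 82.7 TPM (-1.08, limma adjusted p = 3.44e-07). GLRX5, a mitochondrial glutaredoxin that carries clusters, fell most at day 5, from 72.2 to 13.2 TPM (-2.38, limma adjusted p = 1.23e-09, and -1.20 after rescaling). ISCU, the scaffold on which clusters form, gave 0.17 at day 2 and was not called. ISCA2, a late-acting assembly factor, gave -0.11 at day 5 on the deposited scale and 1.03 after rescaling, a flip of direction. The rescaled day 5 calls in this list were 8 lower and 4 higher, beside 26.9% and 27.5% of all features.

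**Figure D4:**
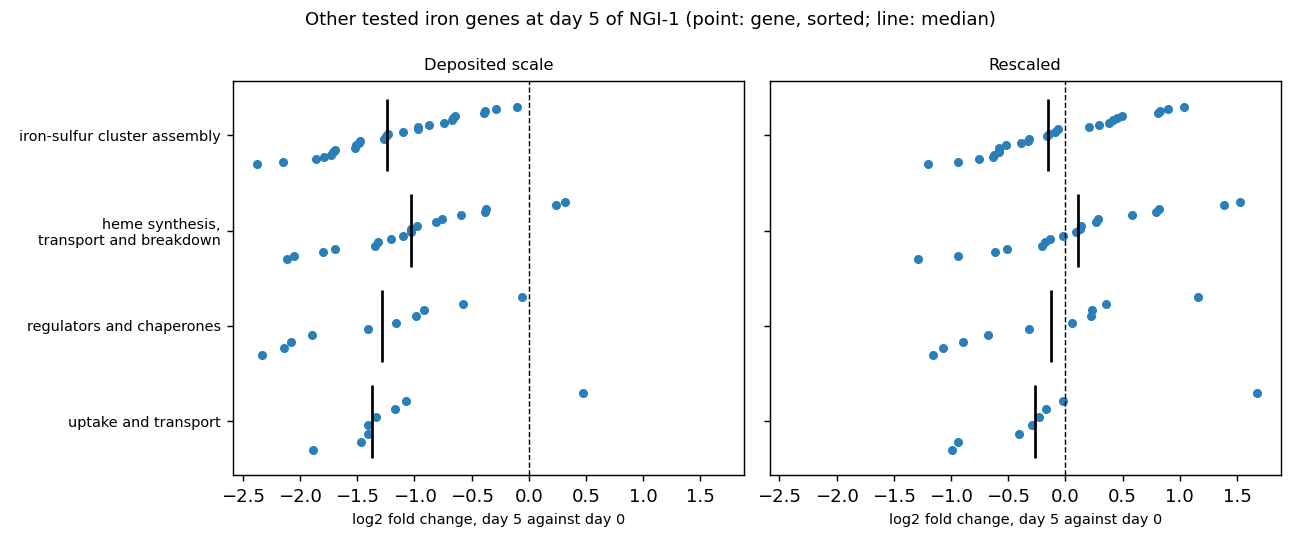
Log2 fold change at day 5 against day 0 (horizontal axis) of the 62 tested genes in 4 iron lists that do not hold the 8 members, on the deposited scale (left) and after rescaling (right). Each point is a gene, sorted within its list, and the vertical line in each list is its median. On the left nearly all points lie below 0, with STEAP1 at 0.48 the highest, and on the right they lie on both sides of 0.

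The features whose log2 values most resembled those of 4 members over the 12 libraries were sought among 5432 others with a mean of at least 10 TPM, as a description, since the libraries fall into 4 groups and share the same scaling. The closest to TFRC were MCM7, TUBB and SNRNP25 (Pearson r = 0.998, 0.997 and 0.996), and TUBB, MCM7 and RRP36 after rescaling (r = 0.993 for each). Those closest to IREB2 were MIEF1, LARP4 and WAPL (r = 0.998, 0.997 and 0.997), with MIEF1 and LARP4 again first after rescaling (r = 0.991 and 0.988), followed by PRKD2 (r = 0.984). FTH1 was closest to FLII, TFG and NIBAN1 (r = 0.974, 0.973 and 0.973), and to DDIT4, SLC1A5 and TFG after rescaling (r = 0.904, 0.867 and 0.835). FTL had the weakest matches of the 4 on the deposited scale, with DDIT4, SRGAP2 and VEGFA (r = 0.888, 0.886 and 0.843), and was closest to VEGFA, RNF187 and SLC39A3 after rescaling (r = 0.962, 0.954 and 0.947).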

How the data were processed

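Total RNA of MM1S cells was sequenced, with groups taken from the time-point label. The authors deposited a table of log2(TPM + 1) values for 12 libraries. The submitters' processing notes name FastQC, Trimmomatic, STAR, Salmon and hg38. The annotation is not given in the sources used here. TPM keeps no counts, so depth and counting error are unknown. The filter kept features at 1 TPM or more in 3 or more libraries, which limma 3.58.1 (R 4.3.3) tested in a single fit of all 4 groups with a mean-variance trend, checked on simulated data. Rescaling divided each library by a single factor, so that features averaging 10 TPM or more had a median log2 deviation of 0 from their mean. Hairpins and coordinates came from GENCODE release 29 (GRCh38). Genes named by rule were the 8 members, the largest fall and rise of each list at days 2 and 5, the closest 3 features to TFRC, FTH1, FTL and IREB2, and the highest pseudogenes. Some further list genes were named outside this rule, as examples of rescaled calls or of genes not tested. The members and lists were chosen with earlier results of these data known. Alternatives changed the scaling, pseudocount (0.1), filter (none, or 5 TPM), most abundant 20 features, groups fitted, trend, fold threshold and libraries.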

Additional observations from a re-analysis of the deposited data

Results flagged for a closer look

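TFRC and IREB2 differed between the day 5 and day 2 effects, each measured against the same day 0 libraries. For TFRC the day 5 effect minus the day 2 effect was -1.53 on the log2 scale (limma adjusted p = 3.26e-07), and -0.55 after rescaling (limma adjusted p = 2.33e-04). For IREB2 it was -1.62 (limma adjusted p = 1.38e-06), and -0.72 after rescaling (limma adjusted p = 3.12e-04). In both genes every day 5 library lay below every day 2 library. The difference equals day 5 against day 2, in which the day 0 libraries cancel. Falls were common in that contrast: on the deposited scale 8329 of all 11939 features were called lower, with a median change of -0.83. Calls of a rise numbered 519. Once libraries were rescaled, the median was -0.07, with 2159 features called as falling and 2265 as rising.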

How the results depend on the processing

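No paired analysis was possible because the labels give no replicate numbers shared between groups. Among values called on at least 1 scale, rescaling reversed FTL (day 3 0.25, day 5 1.20, day 5 against day 2 0.73), NCOA4 (day 3 0.042), FTH1 (day 5 0.31, day 5 against day 2 0.10), CIAO2A (day 3 0.70, day 5 1.16), FECH (0.055, 0.28), ISCU (0.84, 0.82), ISCA2 (day 5 1.03) and MARCHF8 (day 5 0.36). It took the members called lower from 2 to 1 (day 2), 7 to 3 (day 3), 6 to 3 (day 5), 7 to 1 (day 3 against day 2), 1 to 0 (day 5 against day 3) and 6 to 2 (day 5 against day 2), and those called higher to 1 (day 5), 2 (day 5 against day 3) and 1 (day 5 against day 2). For day 5 against day 2, rescaling took the falls called over all 11939 features from 8329 to 2159, and the rises from 519 to 2265. At day 2, 1 member was lower without the 20 most abundant features or with a log2 fold change threshold of 1. That threshold left 5 lower at day 3, 5 at day 5, 4 lower from day 2 to day 3, and 0 lower and 0 higher from day 3 to day 5. At that threshold 620, 4296 and 5910 of all 11939 features were lower at days 2, 3 and 5. From day 2 to day 3, 1984 were lower, and from day 3 to day 5, 61 were lower and 6 higher. Without the 20 most abundant features, 2201 of 11919 features were lower at day 2. The lower call of day 5 against day 3 also went to 0 with no filter and in pairwise fits, where 1172 of 27655 and 981 of 11939 features were lower. Leaving out each library in turn gave 1 to 2 lower at day 2 (1 without day 0 replicate 2), 0 to 3 lower from day 3 to day 5 (0 without day 3 replicate 2, day 5 replicate 1 or day 5 replicate 2, and 3 without day 5 replicate 3) and 0 to 1 higher (0 without day 5 replicate 3). Over all features, 2545 of 11786 were lower at day 2 without day 0 replicate 2. From day 3 to day 5, 952 of 11905, 908 of 11910 and 1237 of 11907 were lower in the 3 settings with 0 members lower. Without day 5 replicate 3, 3019 of 11891 were lower and 73 higher, against 1565 and 80 of 11939 with all libraries. The ferritin share difference was 0.062 percentage points without the 20 most abundant features, against -0.056. In that setting FTL at day 5 was 0.29, and heme genes called lower at day 2 went from 7 to 3. Leaving out day 3 replicate 2 and day 5 replicate 3 together, chosen after seeing the data, moved no count of members. The causes were not tested.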
